A study of Mus musculus with 4 samples.

Results

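The 8 genes described here make, remove or sense retinoic acid in mouse dendritic cells. They were taken by gene symbol for their known roles, in a choice made with earlier results of these data known, and all 8 were found among the 19938 genes that could be named on the array. They fall into enzymes (Rdh10, Dhrs3, Aldh1a1 and Aldh1a2) and nuclear receptors (Rara, Rarg, Rxra and Rxrb). Each gene had 1 probe set, so no choice among probe sets was needed for them.

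The cells were cultured from whole mouse bone marrow for 10 days with 20 ng/mL GM-CSF, a cytokine that drives marrow precursors towards dendritic cells. On day 10 every culture was electroporated with an siRNA, either a control siRNA (si-Ctrl) or an siRNA against NR4A3 (si-NR4A3), a transcription factor of the nuclear receptor family with no known ligand. LPS, a bacterial cell wall component, was added at 100 ng/mL to some cultures 24 hours later, and LPS-treated cells were taken after 24 hours of exposure. Total RNA of each of the 4 conditions was measured on 1 array, so all 4 groups share GM-CSF and electroporation, and no untransfected cells are among them. The growth protocol names BALB/c mice and the sample characteristics C57BL/6, and the labels state neither age nor whether the conditions came from separate cultures.

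Retinoic acid is made from retinol (vitamin A) in oxidation steps. Rdh10 oxidises retinol to retinal, Dhrs3 reduces retinal back to retinol, and the retinal dehydrogenases Aldh1a1 and Aldh1a2 oxidise retinal irreversibly to retinoic acid. Retinoic acid binds the receptors RARα and RARγ (Rara, Rarg), which act on DNA as partners of the retinoid X receptors RXRα and RXRβ (Rxra, Rxrb). Dendritic cells of the gut are known for high Aldh1a2, and the retinoic acid they release gives T cells gut-homing receptors and favours regulatory T cells. Dhrs3 thus works against synthesis, although it stands in 1 list with the enzymes of synthesis.

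The promoter windows that frame the results are those of Aldh1a2, of Dhrs3 and of the second annotated start of Rxra. Aldh1a2 was lower and Dhrs3 higher with NR4A3 siRNA, although neither average difference passed the limma test given below. Rdh10 was also higher but had no window. The Rxra window is the only one of these genes with the NR4A monomer site searched for here. RefSeq (GRCm38.p6) gave 16 windows of 300 bases for 7 of the 8 genes, each reaching from 250 bases before to 50 bases after an annotated start. Sequences run 5′ to 3′ on the strand of the gene, and capitals mark matches to AAAGGTCA, the NR4A monomer site, and to AGGTCA, the hexamer that nuclear receptors of this type share, on either strand.
Aldh1a2, chr9:71215539-71215838, plus strand: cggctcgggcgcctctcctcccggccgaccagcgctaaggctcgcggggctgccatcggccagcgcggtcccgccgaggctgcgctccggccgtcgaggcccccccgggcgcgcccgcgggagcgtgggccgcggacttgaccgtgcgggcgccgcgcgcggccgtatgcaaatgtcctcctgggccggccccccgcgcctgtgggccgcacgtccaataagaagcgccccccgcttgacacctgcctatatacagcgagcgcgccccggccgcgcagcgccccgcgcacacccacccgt
Dhrs3, start 1, chr4:144892577-144892876, plus strand: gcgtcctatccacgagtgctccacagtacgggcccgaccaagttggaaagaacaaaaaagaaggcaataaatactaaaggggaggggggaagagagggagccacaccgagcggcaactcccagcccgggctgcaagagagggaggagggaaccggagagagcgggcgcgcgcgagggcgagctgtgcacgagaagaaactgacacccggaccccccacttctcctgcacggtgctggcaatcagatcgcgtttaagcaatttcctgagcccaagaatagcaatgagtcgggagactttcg
Rxra, start 2, chr2:27709042-27709341, plus strand: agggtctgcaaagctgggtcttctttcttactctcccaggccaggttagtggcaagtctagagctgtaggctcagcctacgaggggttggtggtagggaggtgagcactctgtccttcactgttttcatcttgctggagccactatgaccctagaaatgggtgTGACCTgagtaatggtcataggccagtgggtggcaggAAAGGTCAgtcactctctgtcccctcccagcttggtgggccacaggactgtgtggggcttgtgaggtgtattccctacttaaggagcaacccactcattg

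The Aldh1a2 window has 78.0% G and C, against a mean of 53.8% over all windows, and holds neither match. The Dhrs3 window has 58.7% G and C and no match, and neither have its 2 other windows. In the Rxra window AAAGGTCA begins 50 bases before the start (position -50 from the annotated start), and its last 6 bases are also an AGGTCA match. A second AGGTCA lies on the opposite strand at -87. Over all 32851 windows, 1.51% held AAAGGTCA and 16.3% held AGGTCA. The receptors Rara (start 4) and Rarg (start 1) each had 1 AGGTCA match, and no window of these genes held the exact direct repeat of AGGTCA with 5 bases between (DR5), a form that RAR and RXR bind and that 3 of all windows held. A match describes letters and not binding.

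The values are log2 expression levels. The median of the named genes, 6.66, served as the lower limit of reliable signal: a difference was counted when it was at least 2-fold and the brighter array of the pair reached that level. Single differences between 2 arrays have no replicate check and no test. The average effect of the siRNA over both states, and of LPS over both siRNAs, was tested with an additive limma fit over 10592 genes, 2 arrays against 2. Probe sets differ in brightness, so levels are compared between arrays and not between genes.

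The siRNA lowered its target. Nr4a3 stood at 11.21 with control siRNA and 7.15 with NR4A3 siRNA in unstimulated cells, and at 11.77 and 9.39 with LPS, an average effect of -3.22 ± 0.36 (SE; limma adjusted p = 0.0145). Medians of the 4 arrays lay between 6.37 and 6.42. Of 10 dendritic cell markers 9 reached the limit on every array, with Flt3 below it on all 4. All 8 measured macrophage and monocyte markers also reached it. None of 4 B cell, 5 T and NK cell and 2 erythroid markers did, whereas 1 of 8 neutrophil markers (S100a8), 2 of 8 mast cell, basophil and eosinophil markers (Gata2 and Siglecf) and 4 of 6 stromal markers did. The arrays are of bulk RNA, so fewer cells of a type and less RNA per cell cannot be told apart.

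Aldh1a2, the enzyme that commits retinal to retinoic acid, had the widest range of the 8 genes. Its level was 10.85 in unstimulated cells with control siRNA, 10.72 with control siRNA and LPS, 8.88 in unstimulated cells with NR4A3 siRNA, and 10.43 with NR4A3 siRNA and LPS. The unstimulated array with NR4A3 siRNA stood apart below the other 3, which lay between 10.43 and 10.85. Without LPS the level was 3.92-fold lower with NR4A3 siRNA (log2 difference -1.97), which ranked 36th from the lowest of 10257 genes. It was the only one of the 8 genes counted there, against 1.72% of all genes at least 2-fold lower. With LPS the difference between the siRNAs was -0.30, a 1.23-fold lower level, below the 2-fold limit.

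With control siRNA the LPS difference of Aldh1a2 was small, at -0.13. With NR4A3 siRNA the LPS-treated array was 2.92-fold higher than the unstimulated array (1.55). This was the only count of a higher level among the 8 genes there, against 5.31% of all genes at least 2-fold higher. The LPS difference was therefore larger by 1.67 with NR4A3 siRNA than with control siRNA, which ranked 15th from the highest of 10592 genes. Nr4a3 itself ranked 14th by the same measure. A difference of LPS effects of at least 1 was found for 0.651% of genes in this direction, and Aldh1a2 was the only one of the 8 among them. All 4 arrays enter that value, so it could not be tested.

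In the additive fit the average siRNA effect on Aldh1a2 was -1.13 ± 0.36 (SE), with a 95% interval of -2.03 to -0.24 and a limma adjusted p of 0.125. The average LPS effect was 0.71 ± 0.36, adjusted p = 0.198. Neither passed the threshold of 0.05. The SE of Aldh1a2 was the largest of the 7 genes fitted, since the unequal LPS differences enter the residual.

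In unstimulated cells some markers of dendritic cells were, like Aldh1a2, lower with NR4A3 siRNA, and some were lower with LPS too. The summed level of the list (log2 of the sum over 10 markers) was 15.39 and 15.42 with control siRNA without and with LPS, and 15.09 and 15.19 with NR4A3 siRNA. Ccr7, the receptor that takes dendritic cells to lymph nodes, stood at 12.99, 13.38, 9.46 and 12.64 in the same order, lowest where Aldh1a2 was lowest. The sum gives most weight to bright genes, so the large Ccr7 difference enters it strongly. Over the 10 markers the median siRNA difference without LPS was -0.36. At least 1.5-fold lower were 3 of them (Ccr7 at -3.53, Dpp4 at -0.98 and the costimulator gene Cd86 at -0.92), beside 4.69% of all genes. With LPS the median was -0.12, and 3 were at least 1.5-fold lower (Cd86 at -1.07, Ccr7 at -0.74 and Zbtb46 at -0.64), beside 4.73%. In unstimulated cells the other markers differed less. Flt3, below the limit, differed by -0.76, Ciita by -0.44 and Zbtb46 by -0.27, whereas Itgax, H2-Aa, H2-Ab1 and Cd74 differed by 0.04, -0.01, -0.03 and 0.02. Cd86 was the only marker of the list that passed the siRNA test (average -0.99, limma adjusted p = 0.0118). The part of the marker levels in the Aldh1a2 difference was not tested.

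**Figure D1:**
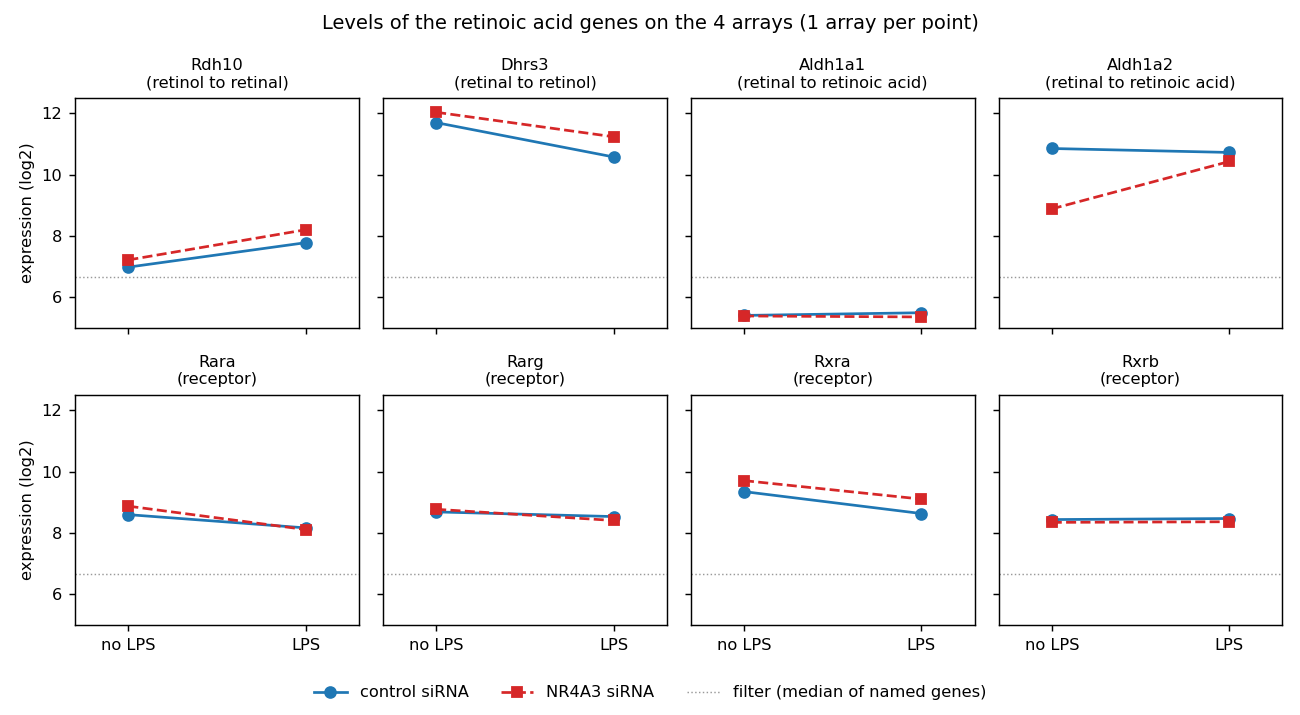
Log2 expression (y axis) of the 8 genes without and with LPS (x axis), 1 array per point, for control siRNA (circles, solid line) and NR4A3 siRNA (squares, dashed line). The dotted line is the lower limit of 6.66. Aldh1a2 is low only in unstimulated cells with NR4A3 siRNA (8.88), Dhrs3 and Rxra are lower with LPS under either siRNA, and Aldh1a1 lies below the limit on all 4 arrays.

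Aldh1a1, the other retinal dehydrogenase, stayed dim. It measured 5.41, 5.49, 5.39 and 5.36 in unstimulated and LPS-treated cells with control siRNA and then with NR4A3 siRNA. All 4 values lay below the limit and within 0.14 of each other, so no difference was counted and the gene was left out of the fit. A close relative, Aldh1a7, whose sequence is similar enough that probes could be shared, was also below the limit at 4.74 to 4.87. Aldh1a3 and Aldh8a1, which also act on retinal, did not exceed 5.80 and 4.87, so that of these retinal dehydrogenases only Aldh1a2 reached the limit.

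Rdh10, which supplies retinal, was higher with LPS under either siRNA. Its level was 6.98 and 7.78 without and with LPS under control siRNA, and 7.22 and 8.20 under NR4A3 siRNA. Both LPS arrays lay above both unstimulated arrays. The LPS differences were 1.74-fold and 1.98-fold, short of the 2-fold limit. Rdh10 rose by 0.89 ± 0.10 (SE) on average with LPS (limma adjusted p = 0.00229), as did 15.6% of the genes tested. Between the siRNAs it was higher by 0.24 and 0.42 with NR4A3 siRNA without and with LPS, an average of 0.33 (95% interval 0.07 to 0.58, adjusted p = 0.121).

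Dhrs3, which returns retinal to retinol, differed in the opposite sense to Rdh10 with LPS. It stood at 11.70 and 10.57 without and with LPS under control siRNA, and at 12.03 and 11.23 under NR4A3 siRNA, so that both LPS arrays lay below both unstimulated arrays. With control siRNA the LPS level was 2.17-fold lower, the only count of a lower level among the 8 genes in that comparison, against 3.83% of all genes. With NR4A3 siRNA it was 1.74-fold lower. On average Dhrs3 fell by 0.96 ± 0.12 (SE) with LPS (limma adjusted p = 0.0027), and 14.4% of the genes tested fell.

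Dhrs3 was higher with NR4A3 siRNA in both states, each time from 1 pair of arrays. The differences were 0.34 without LPS and 0.66 with LPS, and the second, a 1.58-fold higher level, ranked 250th from the highest of 10210 genes. The average of 0.50 ± 0.12 (SE) had a 95% interval of 0.21 to 0.79 and an adjusted p of 0.0698, short of the threshold. Over the alternatives of the limma fit the adjusted p ranged from 0.0466 to 0.122. Only the prior that follows the mean level, which gave 0.0466, brought it under the threshold. In unstimulated cells, then, NR4A3 siRNA came with a 3.92-fold lower level of Aldh1a2, which oxidises retinal. Dhrs3, which reduces retinal, was 1.26-fold higher there, and Rdh10, which supplies retinal, 1.18-fold higher. Neither of these 2 rises reached 1.5-fold.

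**Figure D2:**
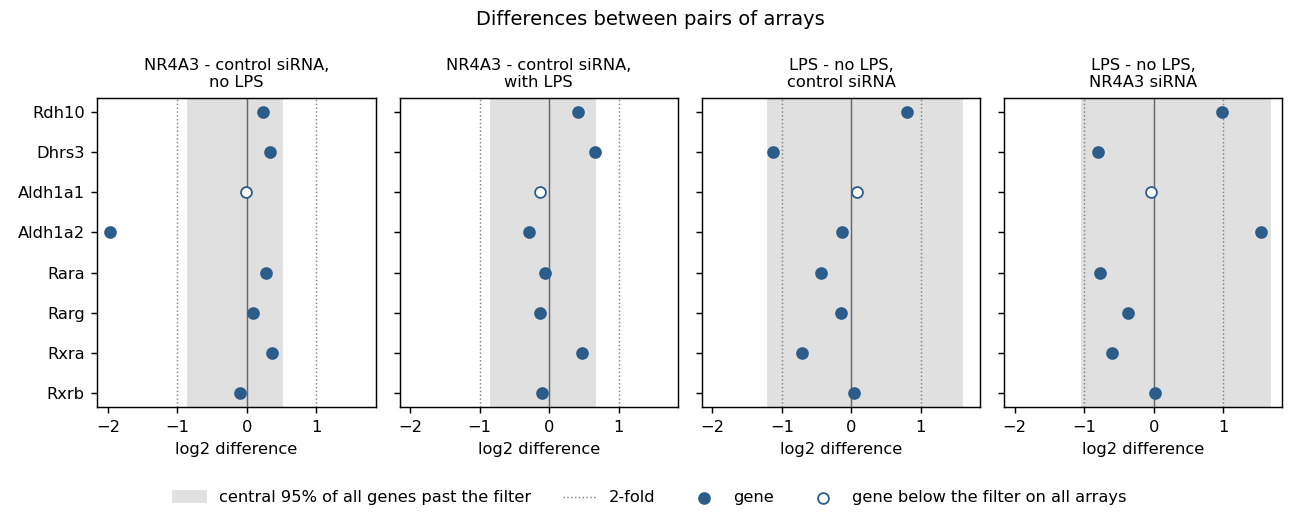
Log2 differences (x axis) of the 8 genes (rows) in the 4 comparisons of 2 arrays. Grey bands hold the central 95% of all genes past the lower limit, dotted lines mark 2-fold, and the open point is Aldh1a1, below the limit on all arrays. Aldh1a2 lies at -1.97 without LPS, below the band that ends at -0.85.

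Among the receptors, Rxra, the common partner of RARs and of other nuclear receptors, had the widest range. It measured 9.35 and 8.64 without and with LPS under control siRNA, and 9.71 and 9.11 under NR4A3 siRNA. Each LPS array was below both unstimulated arrays. Rxra fell by 0.66 ± 0.10 (SE) on average with LPS (limma adjusted p = 0.00548). With NR4A3 siRNA it was higher by 0.36 and 0.47 without and with LPS, an average of 0.41 with a 95% interval of 0.17 to 0.66 (adjusted p = 0.0714).

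Rara, the RAR that is known to act in myeloid cells, also fell with LPS. Its levels were 8.60 and 8.17 under control siRNA and 8.88 and 8.11 under NR4A3 siRNA. The average LPS effect was -0.60 ± 0.12 (SE; limma adjusted p = 0.0146). Between the siRNAs it differed by 0.28 without LPS and -0.05 with LPS, and the average of 0.11 had an interval of -0.18 to 0.40 (adjusted p = 0.598).

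Rarg and Rxrb moved least of the genes above the limit. Rarg measured 8.69, 8.54, 8.77 and 8.41, in unstimulated and LPS-treated cells with control siRNA and then with NR4A3 siRNA, and its LPS effect of -0.26 had an interval of -0.52 to 0.0029 (limma adjusted p = 0.122). Rxrb measured 8.44, 8.47, 8.35 and 8.37 in the same order. Its average LPS effect was 0.03 (interval -0.21 to 0.26, adjusted p = 0.865) and its average siRNA effect -0.10 (interval -0.34 to 0.14, adjusted p = 0.561). These intervals leave out the average LPS effect estimated for Rxra, -0.66. The Rarg interval overlaps that of Rxra (-0.90 to -0.42), however, so a difference between Rarg and Rxra was not shown.

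Over the 8 genes, then, LPS effects passed the limma test for Rdh10, which rose, and for Dhrs3, Rara and Rxra, which fell. These were 1 and 3 of the 7 genes fitted, beside 15.6% and 14.4% of all genes tested. The siRNA effects passed for none in the limma fit. By limma without adjustment, 4 of the 7 genes fitted (Aldh1a2, Rdh10, Dhrs3 and Rxra) were under the same threshold for the siRNA effect, as were 26.2% of all genes tested. After adjustment, 3.58% of all genes fell and 1.98% rose with NR4A3 siRNA. The 7 genes past the limit had a median siRNA difference of 0.24 in unstimulated and -0.05 in LPS-treated cells, beside 0.02 and 0.05 over all genes past the limit. Their median LPS difference was -0.15 with control siRNA and -0.36 with NR4A3 siRNA, beside -0.02 and 0.02. With Aldh1a1 included, the medians of the 8 genes were 0.16, -0.08, -0.14 and -0.20 in the same order.

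Counts at 1.5-fold show the same genes. In unstimulated cells, NR4A3 siRNA came with Aldh1a2 lower by 1.5-fold or more and 0 of the 8 genes higher, against 4.69% and 1.62% of all genes. Under LPS, Dhrs3 was the only one higher and 0 were lower, against 3.73% and 4.73%. With control siRNA, LPS came with 1.5-fold higher Rdh10 and lower Dhrs3 and Rxra, 1 and 2 genes of 8, where 10.2% and 9.44% of all genes were higher and lower. With NR4A3 siRNA, Aldh1a2 and Rdh10 were higher and Dhrs3, Rara and Rxra lower, 2 and 3 genes, where the shares of all genes were 10.3% and 6.88%. None of the 8 genes was at least 2-fold lower with LPS under NR4A3 siRNA, against 2.71% of all genes.

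Levels of other cell types' markers also differed with LPS. The stromal marker sum was 9.29 and 9.28 without LPS and 10.54 and 10.76 with LPS, with control and NR4A3 siRNA, and the rise was in decorin (Dcn), from 7.30 to 9.99 and from 7.06 to 10.31. The other 3 stromal markers past the limit did not pass the LPS test: Col1a1, Col1a2 and Col3a1 differed by -0.07, 0.02 and -0.07 with LPS under control siRNA and by -0.14, -0.20 and -0.13 under NR4A3 siRNA. The mast cell, basophil and eosinophil sum was 10.57 and 10.39 without LPS and 9.26 and 10.05 with it. In that list Siglecf ranged from 8.04 to 10.21. The mast cell and basophil markers Fcer1a, Ms4a2 and Mcpt8 stayed below the limit. So did the eosinophil markers Prg2 and Epx, neither of which exceeded 5.45. The macrophage and monocyte sum was 14.81 and 14.92 without LPS and 14.87 and 15.15 with it. In that list the mannose receptor Mrc1 and the chemokine receptor Ccr2 fell (average LPS effects -3.92 and -1.82, limma adjusted p = 2.29e-05 and 0.000343), whereas Adgre1 and Fcgr1 rose (1.68 and 2.62, adjusted p = 0.000349 and 7.29e-05). Between the siRNAs the median of that list was 0.17 without and 0.35 with LPS. At least 1.5-fold higher were 0 of the 8 without LPS and 2 with LPS, beside 1.62% and 3.73% of all genes. In both states 0 were lower, beside 4.69% and 4.73%. Mrc1 was the only one of the 8 that passed the siRNA test (average 0.63, limma adjusted p = 0.0299), beside 1.98% of all genes that rose and 3.58% that fell. The part of all these markers in the LPS differences of Rdh10, Dhrs3, Rara and Rxra was not tested. Nor was their part in the siRNA differences of these genes.

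**Figure D3:**
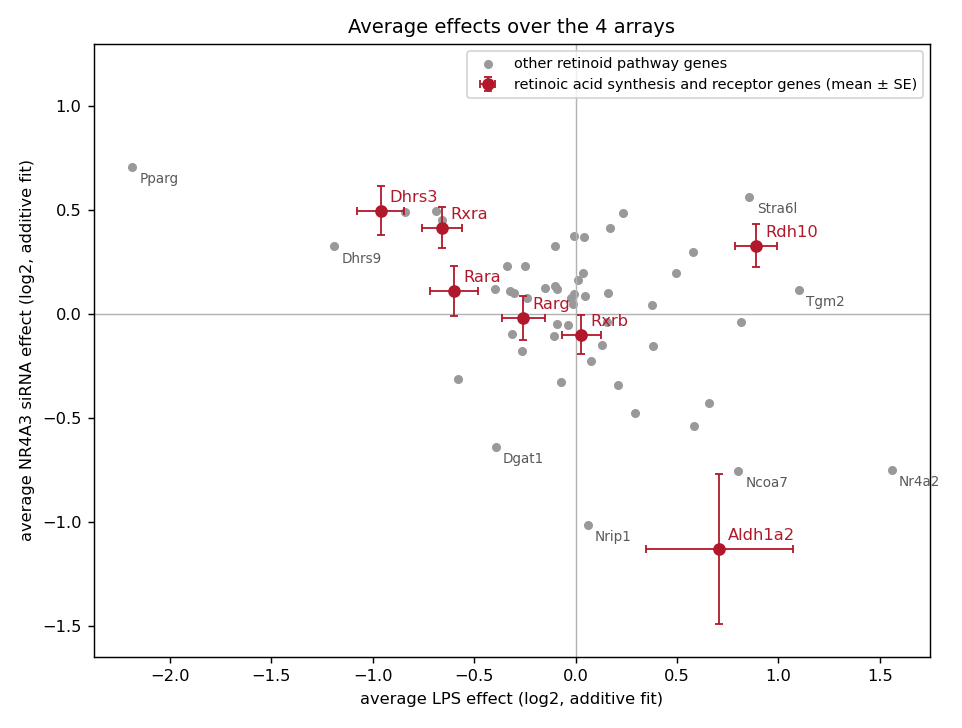
Average NR4A3 siRNA effect (y axis) against average LPS effect (x axis), both in log2 from the additive fit over 4 arrays. Red points with SE bars are the 7 retinoic acid synthesis and receptor genes that reached the lower limit, grey points the other retinoid pathway genes. Dhrs3 and Rxra lie at upper left (LPS -0.96 and -0.66), Rdh10 at upper right (0.89), and Aldh1a2, with the longest bars, at the bottom (siRNA -1.13).

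The rest of the pathway was described through lists of genes with known roles. Of 15 measured genes of retinoid uptake, storage and binding, 6 reached the limit on an array. Of these 1 rose and 1 fell with NR4A3 siRNA, beside 1.98% and 3.58% of all genes tested. With LPS 2 rose and 2 fell, beside 15.6% and 14.4%. Stra6l, a receptor for retinol-binding protein, rose by 0.56 with NR4A3 siRNA and by 0.86 with LPS (limma adjusted p = 0.0355 and 0.00204). Dgat1, which can esterify retinol for storage, fell by 0.64 and 0.39 (adjusted p = 0.0277 and 0.0291). Retsat, which saturates retinol, fell by 0.69 with LPS (adjusted p = 0.00515), while its siRNA effect was 0.49 (adjusted p = 0.0523, and 0.0413 to 0.0448 under 4 of the alternatives). Lipe, a lipase that can free retinol from its esters, rose by 0.66 with LPS (adjusted p = 0.00511) and had an siRNA effect of -0.43 (adjusted p = 0.0637). The siRNA call of Stra6l was lost with cyclic loess (adjusted p = 0.0603) and without the lower limit (0.0643), and that of Dgat1 without the lower limit (0.0533).

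Of 20 other retinol and retinal dehydrogenases, 8 reached the limit on an array. Dhrs9, a retinol dehydrogenase of myeloid cells, had the largest difference of these, 9.43 and 8.10 without and with LPS under control siRNA and 9.61 and 8.56 under NR4A3 siRNA, and fell by 1.19 with LPS (limma adjusted p = 0.0011). Dhrs7 fell by 0.66 and Adh7 rose by 0.58 with LPS (adjusted p = 0.00656 and 0.013). Rdh13 was 0.72 higher with NR4A3 siRNA under LPS but passed neither test (siRNA adjusted p = 0.097). For LPS 1 gene of this list rose and 2 fell, beside 15.6% and 14.4% of all genes tested. For the siRNA effect 0 passed in limma, beside 1.98% of all genes that rose and 3.58% that fell. Without adjustment 6 of 8 were under the threshold, beside 26.2% of all genes.

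Of 15 other aldehyde dehydrogenases 11 reached the limit. In the limma test of the siRNA effect 0 of them passed, beside 1.98% of all genes that rose and 3.58% that fell. Without adjustment 2 of 11 were under the threshold, beside 26.2% of all genes. Between the siRNAs without LPS, 0 were at least 1.5-fold different, where 1.62% of all genes were higher and 4.69% lower. LPS effects passed for Aldh1b1, which rose by 0.81, and for Aldh2, Aldh9a1 and Aldh16a1, which fell by 0.84, 0.58 and 0.40 (limma adjusted p = 0.00472, 0.00487, 0.0245 and 0.0285). These were 1 and 3 of the 11, beside 15.6% of all genes that rose and 14.4% that fell. The call of Aldh9a1 was lost without the lower limit (adjusted p = 0.0517). The Aldh1a2 difference of -1.97 between the siRNAs without LPS lay beyond those 11 enzymes, which ranged from -0.09 to 0.35.

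The 3 enzymes that break retinoic acid down, Cyp26a1, Cyp26b1 and Cyp26c1, stayed below the limit on all arrays, with highest levels of 5.4, 6.66 and 6.39. Of 12 measured genes that retinoic acid is known to induce in various cell types, 4 reached the limit. Tgm2, a transglutaminase, rose by 1.1 with LPS (limma adjusted p = 0.00248) and Hic1, a transcriptional repressor, by 0.38 (adjusted p = 0.0422, lost without the lower limit at 0.0586 and with the trend prior at 0.0548). Asb2 stood at 7.67, 7.15, 7.39 and 8.26, so that it was 1.11 higher with NR4A3 siRNA under LPS and -0.28 without. Cebpe had an LPS effect of -0.30 (adjusted p = 0.0728, and 0.0467 with repeated quantile normalization). In the LPS test 2 of the 4 rose and 0 fell, beside 15.6% and 14.4% of all genes. For the siRNA effect 0 of the 4 passed in limma, 0 also without adjustment, beside 26.2% of all genes without adjustment. None of these 4 genes was at least 1.5-fold different between the siRNAs in unstimulated cells, where 1.62% of all genes were higher and 4.69% lower. Their siRNA differences there were -0.09, -0.05, -0.28 and 0.02. How these levels relate to that of Aldh1a2 was not tested.

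Other retinoid receptors and partners of RXR were measured for 14 genes, of which 7 reached the limit. With LPS 2 of them rose and 2 fell, beside 15.6% and 14.4% of all genes tested. With NR4A3 siRNA 1 rose and 0 fell, beside 1.98% and 3.58%. Pparg, a lipid-sensing partner of RXR, stood at 9.21 and 7.25 without and with LPS under control siRNA and at 10.15 and 7.73 under NR4A3 siRNA. It fell by 2.19 with LPS and rose by 0.71 with NR4A3 siRNA (limma adjusted p = 0.000262 and 0.0445), the second call being lost with repeated quantile normalization, cyclic loess and no lower limit (adjusted p = 0.0843, 0.0941 and 0.0981). Nr1h3, the sterol receptor LXRα, rose by 0.50 with LPS (adjusted p = 0.0141). The vitamin D receptor Vdr was 0.71 lower with NR4A3 siRNA under LPS and 0.03 higher without it. Nr4a2, an NR4A receptor that can pair with RXR, rose by 1.56 with LPS (adjusted p = 0.00358) and was 0.31 and 1.19 lower with NR4A3 siRNA without and with LPS (average -0.75, adjusted p = 0.0944).

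All 15 measured co-regulators of nuclear receptors reached the limit. Of these 3 fell and 0 rose with NR4A3 siRNA, beside 3.58% and 1.98% of all genes tested. With LPS 2 rose and 0 fell, beside 15.6% and 14.4%. Their median difference between the siRNAs was -0.12 without and -0.17 with LPS, beside 0.02 and 0.05 over all genes past the limit. Nrip1, a co-repressor that ligand-bound RARs recruit, stood at 8.95 and 9.12 with control siRNA and at 8.04 and 8.0 with NR4A3 siRNA, without and with LPS, and both NR4A3 siRNA arrays lay below both control arrays. It fell by 1.01 with NR4A3 siRNA (limma adjusted p = 0.012). Ncoa7 fell by 0.76 and the acetyltransferase gene Kat2b by 0.54 with NR4A3 siRNA (adjusted p = 0.0225 and 0.0446), and both rose with LPS, by 0.80 and 0.58 (adjusted p = 0.00342 and 0.00997). The siRNA calls of Ncoa7 and Kat2b were lost without the lower limit (adjusted p = 0.0533 and 0.0802), and that of Kat2b also with repeated quantile normalization and cyclic loess (0.0557 and 0.0624). Ncoa4 differed by 0.62 and 0.15 with LPS under control and NR4A3 siRNA, and its average of 0.38 did not pass (adjusted p = 0.0889).

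The genes whose profiles lay nearest to 4 of the 8 genes, those with a range of at least 1, were found by the Euclidean distance between log2 values over the 4 arrays, after each gene was centred on its own mean. With 4 arrays many genes share a profile by this measure, and the distances are descriptions. For Aldh1a2, 2 of 10185 genes lay within 0.5. Htra1, a secreted serine protease, was nearest at 0.22, with 8.93, 8.75, 6.76 and 8.24 in the order control siRNA without and with LPS and NR4A3 siRNA without and with LPS. C1s1, a complement protease, followed at 0.49, then Fnbp1l (0.50), Tmem123 (0.51) and the mRNA-decay factor Zfp36l1 (0.57). C1s1 and Fnbp1l were below the lower limit on the unstimulated array with NR4A3 siRNA, at 6.22 and 6.09.

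For Dhrs3, 443 genes lay within 0.5, and the nearest were the prostaglandin receptor gene Ptger2 (0.02), Eps8 (0.06), Lrrc27 (0.06), the myeloid transcription factor gene Cebpa (0.09) and Nme1 (0.09). Ptger2 and Lrrc27 dipped below the lower limit in LPS-treated cells with control siRNA, at 5.99 and 5.98. For Rxra there were 1395 such genes, led by the tetraspanin gene Cd9 (0.03), Sgsh (0.04), Ppic (0.05), Unc119 (0.05) and Acaa2 (0.05). For Rdh10 there were 426, led by Rhov (0.06), the serotonin receptor gene Htr2a (0.08), Snx10 (0.08), the matrix protease gene Mmp14 (0.13) and Ccdc86 (0.13). The distance is not scaled to a gene's range, so a gene with a wide range has fewer neighbours within 0.5 by construction, and these counts are not compared between genes.

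**Figure D4:**
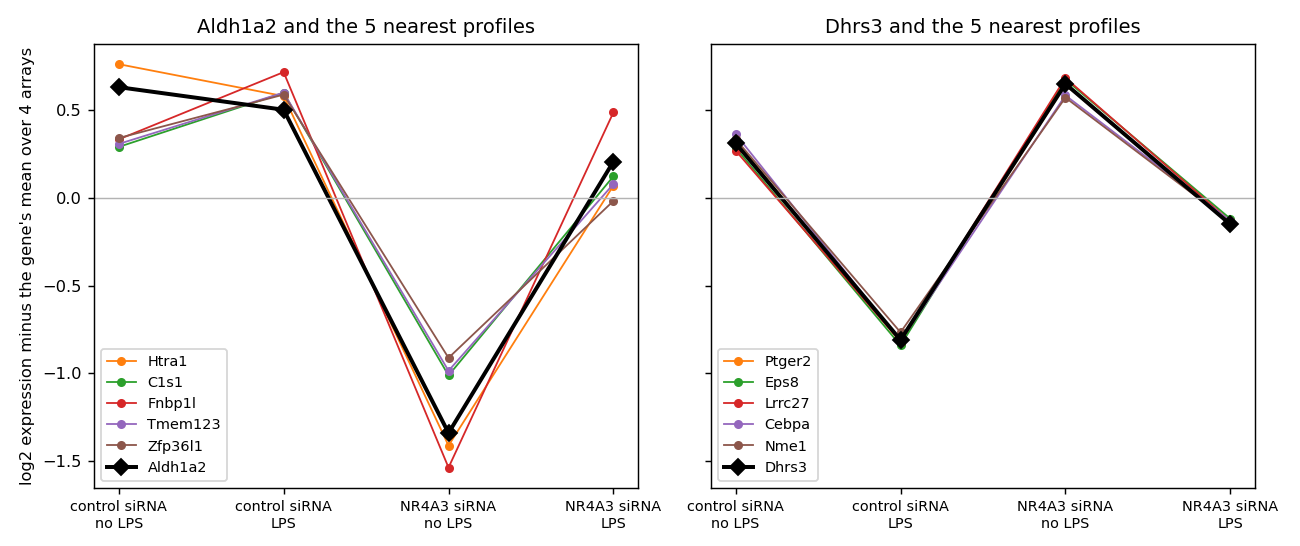
Log2 expression minus each gene's own mean (y axis) on the 4 arrays (x axis) for Aldh1a2 (left) and Dhrs3 (right), in black, with their 5 nearest profiles. Aldh1a2 and its neighbours are lowest on the unstimulated array with NR4A3 siRNA; Dhrs3 and its neighbours are lowest with control siRNA and LPS, and highest in unstimulated cells with NR4A3 siRNA.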

How the data were processed

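The arrays were Affymetrix Mouse Gene 1.0 ST, 1 for each of 4 conditions. The deposited log2 values come from RMA and quantile normalization, per the labels. Affymetrix Expression Console 1.1 is named in the submitters' processing notes and GeneSpring in the design text. Quantile normalization gives the arrays nearly 1 distribution, so a shift of most genes would not be seen. Neither the build nor a filter before deposit is stated (not given in the sources used here).

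Of 28856 probe sets, 21789 with 1 symbol in the platform annotation gave 19938 genes, each at its brightest probe set. The members and gene lists were chosen with earlier results of these data known. Pairs of arrays were compared by log2 difference; the additive fit of siRNA and LPS used limma 3.58.1 in R 4.3.3 (lmFit, eBayes, 1 residual degree of freedom, prior 4.76, Benjamini-Hochberg over 10592 genes with an array at 6.66 or above, threshold 0.05). The residual of the fit holds the difference of the LPS effects between the siRNAs together with array noise. Since separate cultures are not stated, p-values cover only these 4 arrays, and that noise may be technical. The number of arrays limits the precision.

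Besides the 8 genes, Nr4a3 was named, up to 4 genes of each list with the largest difference among those reaching 6.66 on an array, and the 5 nearest profiles per gene with a range of at least 1, without symbols of predicted genes, clones, small RNAs, chemosensory receptors and antigen receptor segments. Genes of small lists outside this rule were named after their values were seen. They were Aldh1a3, Aldh1a7, Aldh8a1 and the Cyp26 genes. Also named so were dendritic cell, stromal, and mast cell, basophil and eosinophil markers outside the first 4 of their lists. Alternatives were median centring, repeated quantile normalization, cyclic loess, mean of probe sets, other folds and limits, and a prior with trend. The fit was tested on simulated data with equal siRNA effects in both states. That setting does not cover LPS differences that are unequal between the siRNAs. Promoter windows came from RefSeq (GRCm38.p6), and 7 of 8 genes matched.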

Additional observations from a re-analysis of the deposited data

Results flagged for a closer look

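The LPS difference of Aldh1a2 had opposite directions under the siRNAs: -0.13 with control siRNA and 1.55 with NR4A3 siRNA, each from 1 pair of arrays. It was singled out because the directions were opposite and at least 1 of the values exceeded 1.5-fold, which held for no other of the 8 genes. The difference between the values was not tested, and the control siRNA value is close to zero.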

How the results depend on the processing

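No paired analysis was possible because each condition has 1 array and the labels carry no replicate numbers, and no replicate could be left out. The direction of every difference of at least 2-fold among the 8 genes was the same under median centring, repeated quantile normalization, cyclic loess and the mean of probe sets: Aldh1a2 ranged from -2.0 to -1.97 between the siRNAs without LPS and from 1.44 to 1.56 with LPS under NR4A3 siRNA, and Dhrs3 from -1.26 to -1.10 with LPS under control siRNA. The LPS calls of Dhrs3, Rara and Rxra held under all 7 alternatives of the fit, and that of Rdh10 under the 6 that tested it, since it lies below the higher limit of 8.67. The average LPS effect of Rxrb turned from 0.027 to -0.0284 with repeated quantile normalization. The trend prior added Dhrs3 to the siRNA calls, 1 gene in place of 0, and the limit of 8.67 left 0 of the 8 genes in place of 1 that rose with LPS. The Nr4a3 siRNA call was lost without a limit (adjusted p = 0.0545), where limma also tested dim genes. Its LPS effect, 1.40 (adjusted p = 0.0352), lost the call with repeated quantile normalization, cyclic loess and no limit (0.0694, 0.0616 and 0.0944). Unless said otherwise, the cause was not tested.

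At 1.5-fold, Dhrs3 was counted higher with NR4A3 siRNA under LPS (1 in place of 0). With LPS under control siRNA the counts were 1 higher and 2 lower in place of 0 and 1, and under NR4A3 siRNA 2 and 3 in place of 1 and 0. At 3-fold the counts of 1 lower and 1 higher with LPS became 0 and 0. Median centring carried Rdh10 past 2-fold with LPS under NR4A3 siRNA (2 in place of 1). Over all genes, counts higher and lower at 1.5-fold, 2-fold and 3-fold were 166 and 481, 21 and 176, and 5 and 63 between the siRNAs without LPS; 381 and 483, 48 and 171, and 7 and 44 with LPS; 1058 and 977, 517 and 396, and 260 and 122 for LPS with control siRNA; and 1070 and 712, 550 and 281, and 278 and 80 with NR4A3 siRNA. The limit of 8.67 lowered the counts of lower genes to 102 between the siRNAs without LPS and to 250 for LPS with control siRNA, fewer genes being compared. In the fit, the siRNA calls of 210 higher and 379 lower genes became 109 higher with repeated quantile normalization, 50 and 217 with cyclic loess, 322 higher with the mean of probe sets and 24 and 132 without a limit. LPS calls of lower genes went from 1524 to 988 with the limit of 8.67.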
